A study of Mus musculus with 6 samples.

Results

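The 195 elements described here are putative enhancers listed in both Ctr-OPCs and IFN-γ-OPCs whose activity was at least halved after IFN-γ. They were chosen on that activity: the 33083 elements predicted in Ctr-OPCs and the 35906 predicted in IFN-γ-OPCs were matched by mutual best overlap covering at least 50% of both lengths, which gave 16855 matched elements, and those with a log2 activity ratio (IFN-γ-OPC over Ctr-OPC) of -1 or less were kept. They made up 1.16% of the matched elements, and 268 matched elements (1.59%) had a ratio of 1 or more (doubled elements). The activity, the scores and the contacts below come from the contrast that chose the elements, and their values are given as a description with no test.

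The cells were cultured primary oligodendrocyte precursor cells (OPCs), the dividing progenitors of the myelin-forming oligodendrocytes, from the brains of postnatal Sox10-Cre/RCE mice, in which Cre driven by the Sox10 gene switches on a GFP reporter in the oligodendrocyte lineage. The labels give the strain as C57BL/6j, whereas the methods give this background for the Cre parent and a mixed C57BL/6xCD1 background for the reporter parent. Cells of several brains were pooled for a culture and were isolated by sorting for GFP or by magnetic selection for CD140a. All were kept in proliferation medium with 20 ng/mL bFGF and 20 ng/mL PDGF-AA, and from 24 h after passaging the Ctr-OPCs received this medium alone and the IFN-γ-OPCs received it with 100 ng/mL of the cytokine. These doses are those of the labels, and the study's methods give a higher bFGF dose. The labels give neither the length of the treatment nor the age of the mice, which are described in the methods. H3K27ac HiChIP, which reads chromatin contacts anchored at the active-enhancer mark H3K27ac, was made from 3 libraries per condition, but the deposited predictions pool these into 1 table per condition, so no value below has a replicate error. A lower activity in fewer cells and a lower signal per cell cannot be told apart in such pooled material. All 7 OPC markers examined (among them Pdgfra, Cspg4, Sox10 and Olig2) were listed as target genes in both tables, but so were 5 of 6 mature oligodendrocyte, 8 of 10 astrocyte, 9 of 10 neuronal and 7 of 10 vascular and mural markers, and 5 of 10 microglial ones in Ctr-OPCs (6 of 10 after IFN-γ). With 25779 target genes listed in Ctr-OPCs, being listed hardly separates cell types.

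Enhancers are stretches of open chromatin that bind transcription factors and raise transcription from promoters that may lie far away. The activity-by-contact (ABC) model scores each pair of an element and a gene as the activity of the element, a combination of ATAC-seq accessibility and H3K27ac signal, times its contact with the promoter, divided by the sum of the same product over all elements around that gene. A pair can therefore lose score because its own element lost activity, because contact fell, or because the other elements of the gene gained. Interferon response genes are typically switched on through promoters and enhancers that carry GAS and ISRE sequences, whereas OPC enhancers are rich in sites for SOX, basic helix-loop-helix and NFI proteins.

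Reference sequences of 8 of the elements are shown, because they carry the points that follow: elements paired with genes of the oligodendrocyte lineage or of growth factor signalling, and elements with lower activity at equal length. Each is 200 bases of the + strand of mm10 (GRCm38), read from the RefSeq reference, and the capitals mark matches on either strand to the short motifs named below, other than the general E-box CANNTG and ACAATG, which were not marked as such. For the first 2, which had equal length in both conditions, the middle of the element is shown. For the others it is the middle of the larger part of the Ctr-OPC element that lay outside the matched IFN-γ-OPC element.

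Intergenic element of chromosome 7, equal length (SOX match ACAAT on the other strand and E-box CAGCTG), chr7:79572353-79572552: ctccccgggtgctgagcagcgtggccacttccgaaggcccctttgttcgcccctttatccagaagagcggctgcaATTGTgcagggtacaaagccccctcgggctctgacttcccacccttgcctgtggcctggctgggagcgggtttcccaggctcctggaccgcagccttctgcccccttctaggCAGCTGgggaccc
Poc1b intron, pair with Dusp6, equal length (E-box CAGCTG and TEAD GGAATG), chr10:99172125-99172324: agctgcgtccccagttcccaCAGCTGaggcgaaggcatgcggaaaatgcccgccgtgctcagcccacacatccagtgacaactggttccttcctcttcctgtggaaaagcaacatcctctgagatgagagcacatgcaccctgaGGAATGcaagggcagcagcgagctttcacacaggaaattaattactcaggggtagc
Tmem163 intron (SOX ACAAT and the ISRE part GAAANNGAA), chr1:127675850-127676049: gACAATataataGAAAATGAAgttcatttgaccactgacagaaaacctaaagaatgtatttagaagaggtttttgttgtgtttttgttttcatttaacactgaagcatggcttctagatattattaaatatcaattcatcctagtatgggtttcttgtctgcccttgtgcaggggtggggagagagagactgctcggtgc
Sox2ot intron, pair with Sox2 (ISRE part GAAANNGAA overlapping SOX ACAAT, and E-box CAGATG on the other strand), chr3:34662940-34663139: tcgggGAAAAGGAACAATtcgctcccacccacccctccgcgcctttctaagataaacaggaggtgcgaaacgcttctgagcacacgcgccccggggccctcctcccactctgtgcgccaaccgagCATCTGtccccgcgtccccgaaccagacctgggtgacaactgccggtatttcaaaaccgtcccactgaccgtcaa
Nkx2-2 intron (E-box CAGCTG), chr2:147178743-147178942: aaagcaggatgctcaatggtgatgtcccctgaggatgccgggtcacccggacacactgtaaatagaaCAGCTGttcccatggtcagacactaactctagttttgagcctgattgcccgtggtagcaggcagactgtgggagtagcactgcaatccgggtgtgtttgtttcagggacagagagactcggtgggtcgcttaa
Dusp4 intron (TEAD GGAATG and SP/KLF GGGCGG, both on the other strand), chr8:34809101-34809300: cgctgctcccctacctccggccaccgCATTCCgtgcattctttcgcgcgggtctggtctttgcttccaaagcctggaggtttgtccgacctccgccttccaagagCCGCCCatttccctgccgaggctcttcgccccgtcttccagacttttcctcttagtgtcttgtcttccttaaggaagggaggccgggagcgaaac
Enpp6 intron (E-boxes CAGCTG and CAGATG, SOX ACAAT), chr8:47005366-47005565: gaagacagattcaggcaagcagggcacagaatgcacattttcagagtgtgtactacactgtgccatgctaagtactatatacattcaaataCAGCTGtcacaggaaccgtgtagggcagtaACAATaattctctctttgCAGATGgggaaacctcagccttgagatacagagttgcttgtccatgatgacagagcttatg
Intergenic element paired with Mobp (RUNX TGTGGT on the other strand), chr9:120144058-120144257: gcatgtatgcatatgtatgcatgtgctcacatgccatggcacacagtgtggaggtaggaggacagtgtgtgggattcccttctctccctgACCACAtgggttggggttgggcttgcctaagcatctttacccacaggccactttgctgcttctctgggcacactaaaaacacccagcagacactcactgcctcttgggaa

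The median activity of the 195 elements was 1.15 in Ctr-OPCs (25th to 75th percentile 0.841 to 1.74) and 0.519 after IFN-γ (0.378 to 0.786), on the unitless activity scale of the model. Whether the activities of both conditions were put on one scale is not given in the sources used here, and the ratios are taken as deposited. Over all matched elements the medians were 1.10 and 1.06. The Ctr-OPC median of the halved elements was thus near that of all, although they were longer in Ctr-OPCs (median 931 bp against 500 bp). Their Ctr-OPC level per base was not compared. The highest Ctr-OPC activity among them was 5.47, against 44.3 for the highest matched element. Their log2 ratios had a median of -1.11 and ran from -1.98 up to the threshold. Of the 195, 86 lay above -1.1 and 6 at -1.5 or below. Just inside the threshold lay an intronic element of the lincRNA Gm10165 (chr12:43834222-43835794, activity 1.23 and 0.617), one in an intron of Taf4, a subunit of the general transcription factor TFIID (chr2:179974233-179975463, 1.73 and 0.866), and an intergenic one paired with Ccdc120 (chrX:7776148-7777125, 0.724 and 0.362). Just outside lay elements within Pcdh19 (chrX:133687537-133688257, 1.07 and 0.535), Gm12711 (chr11:34881462-34882873, 1.34 and 0.669) and Kcnn3 (chr3:89525665-89526853, 1.14 and 0.570). A further 166 matched elements had ratios above -1 and at most -0.9, so the ratios ran on without a gap across the threshold.

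Most of the halved elements were also shorter in IFN-γ-OPCs. Elements were called separately in each condition, and 179 of the 195 (91.8%, 95% Wilson interval 87.1 to 94.9%) were shorter in IFN-γ-OPCs, 16 had equal length (8.21%) and 0 were longer. Over all matched elements 24.6% were shorter and 59.4% had equal length. Their median length went from 931 bp (25th to 75th percentile 814 to 1306) to 500 bp, the shortest length in the tables, while the median over all matched elements was 500 bp in both. The 179 shorter elements left a median of 440 bp of the Ctr-OPC element outside the match, and 109 of them had at least 90% of those bases on one side. In 42 of the 179 another listed IFN-γ-OPC element covered part of the Ctr-OPC element.

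The share of elements below the threshold rose with shortening. It was 7.48% of the 2153 matched elements whose log2 length ratio was -0.5 or less (161 elements), 0.901% of the 1998 that were shortened less (18 elements), 0.16% of the 10004 of equal length (16 elements) and 0% of the 2700 that were longer in IFN-γ-OPCs. Across the 16855 matched elements, log2 activity and log2 length ratios had a Pearson r of 0.53 and a Spearman rho of 0.50, and these points share the same 2 tables. The study's methods name default settings of the ABC code for the activity, and do not say whether it was divided by length. Per base, all 195 elements were lower in IFN-γ-OPCs, as the matching and the threshold together require, with a median log2 ratio of -0.43 (25th to 75th percentile -0.60 to -0.26), but 18 of them stayed at -1 or below, and over all matched elements 53 did (0.314%). The 1992 other elements with a log2 length ratio of -0.5 or less had a median ratio of -0.49 as deposited and 0.26 per base. How far the change in called length makes up the loss of activity was not tested.

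**Figure D1:**
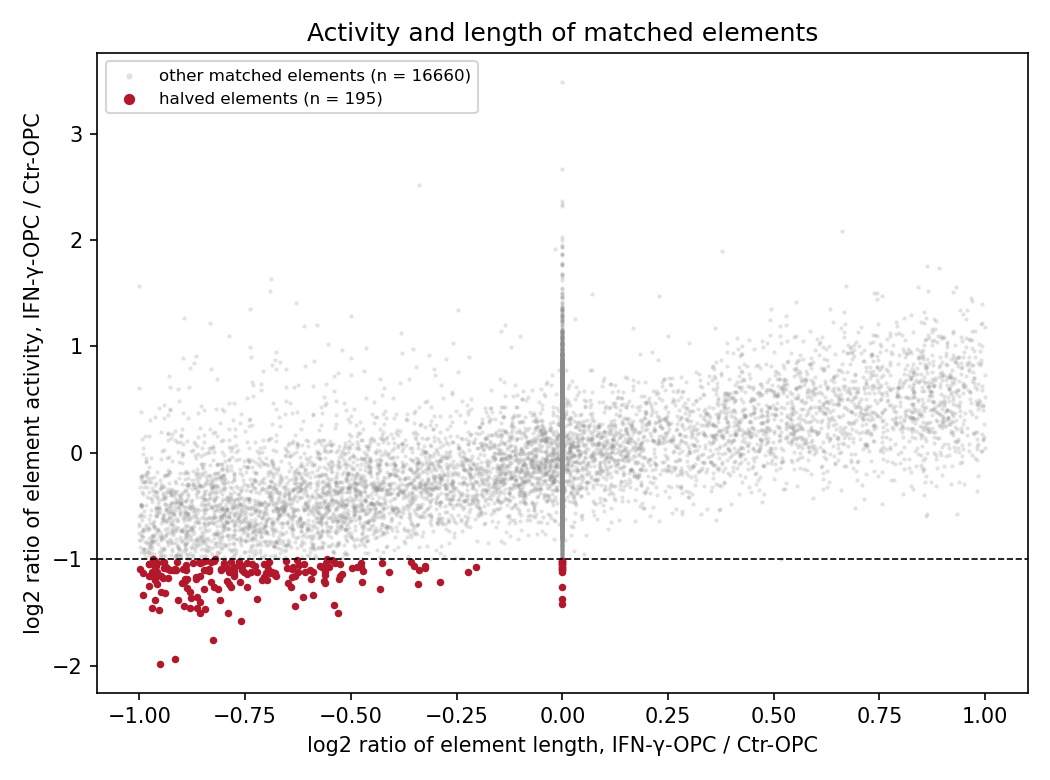
Log2 ratio of element length (x axis) against log2 ratio of element activity (y axis), IFN-γ-OPC over Ctr-OPC, with 1 point for each of the 16855 matched elements; red points are the 195 halved elements, grey points all others, and the dashed line is the threshold of -1. Red points lie at negative length ratios, except the 16 of equal length in the column at 0, and none lies to its right.

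In 16 elements the activity was lower at equal length. Of these, 15 were exactly 500 bp in both conditions. The starts of the 16 differed between the tables by a median of 17.5 bp (1 to 559 bp), and their log2 ratios ran from -1.42 to -1.02. The lowest was an intergenic element of chromosome 14 (chr14:114965708-114966207) with activity 0.519 in Ctr-OPCs and 0.194 after IFN-γ. An element in an intron of Gpc4, a cell-surface heparan sulfate proteoglycan, had 0.350 and 0.135 (chrX:52163418-52163917). The intergenic chromosome 7 element shown above had the highest activity of the 16 in Ctr-OPCs, 3.02, which became 1.26 (chr7:79572203-79572702). The element in an intron of Rspo2, a secreted enhancer of WNT signalling, fell from 0.630 to 0.291 (chr15:43167590-43168089) and its score for Rspo2 went from 0.164 to 0.0606. An element in an intron of Poc1b, a centriole protein, went from 1.37 to 0.651 (chr10:99171975-99172474). The one equal-length element that was not 500 bp covered a coding exon of Sgca (chr11:94970128-94971258), and its counterpart was displaced by 559 bp, so the 2 overlapped in part.

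Of the 10 elements with the lowest ratios, only those of Tmem163 and Dusp4 lay within a gene of the lists read below. An element in an intron of Dsg2, a desmosomal cadherin, had 0.593 in Ctr-OPCs and 0.151 after IFN-γ, a log2 ratio of -1.98, and was 967 bp and 500 bp long. One over a coding exon of Mtfr1, a mitochondrial fission regulator, had 1.92 and 0.503 (chr3:19214700-19216682, -1.93, 1983 bp and 1051 bp). These were the only 2 halved elements of unequal length that also stayed below -1 per base. They were followed by an intronic element of Esrp1, an epithelial splicing regulator (chr4:11384982-11385867, 0.622 and 0.184), an intergenic element with no coding target (chr3:143240331-143241176, 0.841 and 0.282), an exonic element of Pgr, the progesterone receptor (chr9:8901254-8901975, 1.30 and 0.458), and an intronic element of Frem3, an extracellular matrix protein (chr8:80618628-80619492, 0.635 and 0.224). The other 4 of the 10, between -1.5 and -1.46, were an intergenic element of chromosome 1 (chr1:147257984-147258889, 2.26 and 0.799), one in an intron of Has3, a hyaluronan synthase (chr8:106871375-106872343, 1.44 and 0.520), and the elements in introns of Tmem163 and Dusp4 described below. All 10 were shorter in IFN-γ-OPCs.

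The 10 halved elements with the highest Ctr-OPC activity were the following. The highest, in an intron of Sox2ot, the long non-coding RNA that spans Sox2, went from 5.47 to 2.49 (chr3:34441343-34442199), and the second, in an intron of Kiz, went from 5.0 to 2.34 (chr2:146958446-146959387) and was paired with Nkx2-4 and Nkx2-2. A second Sox2ot intronic element went from 3.51 to 1.72 (chr3:34662826-34663730). The others were an intronic element of Zmynd8, a chromatin reader (chr2:165884653-165885578, 4.15 and 1.93), one of Zfp467, a zinc finger protein (chr6:48444012-48444942, 3.74 and 1.76), one of Fat1, a protocadherin (chr8:44979539-44980512, 3.69 and 1.77), and one of Xkr5 (chr8:18939356-18940119, 3.42 and 1.66). The last 3 were one in an intron of Senp7, a SUMO protease (chr16:56075313-56076033, 3.42 and 1.51), one centred in an untranslated region of Uckl1, a uridine-cytidine kinase-like protein (chr2:181581086-181582014, 3.32 and 1.22), and one over a coding exon of Ttbk1, a tau tubulin kinase (chr17:46483425-46485037, 3.25 and 1.45). Per base, the log2 ratios of these 10 were less negative and lay between -0.65 and -0.098.

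**Figure D2:**
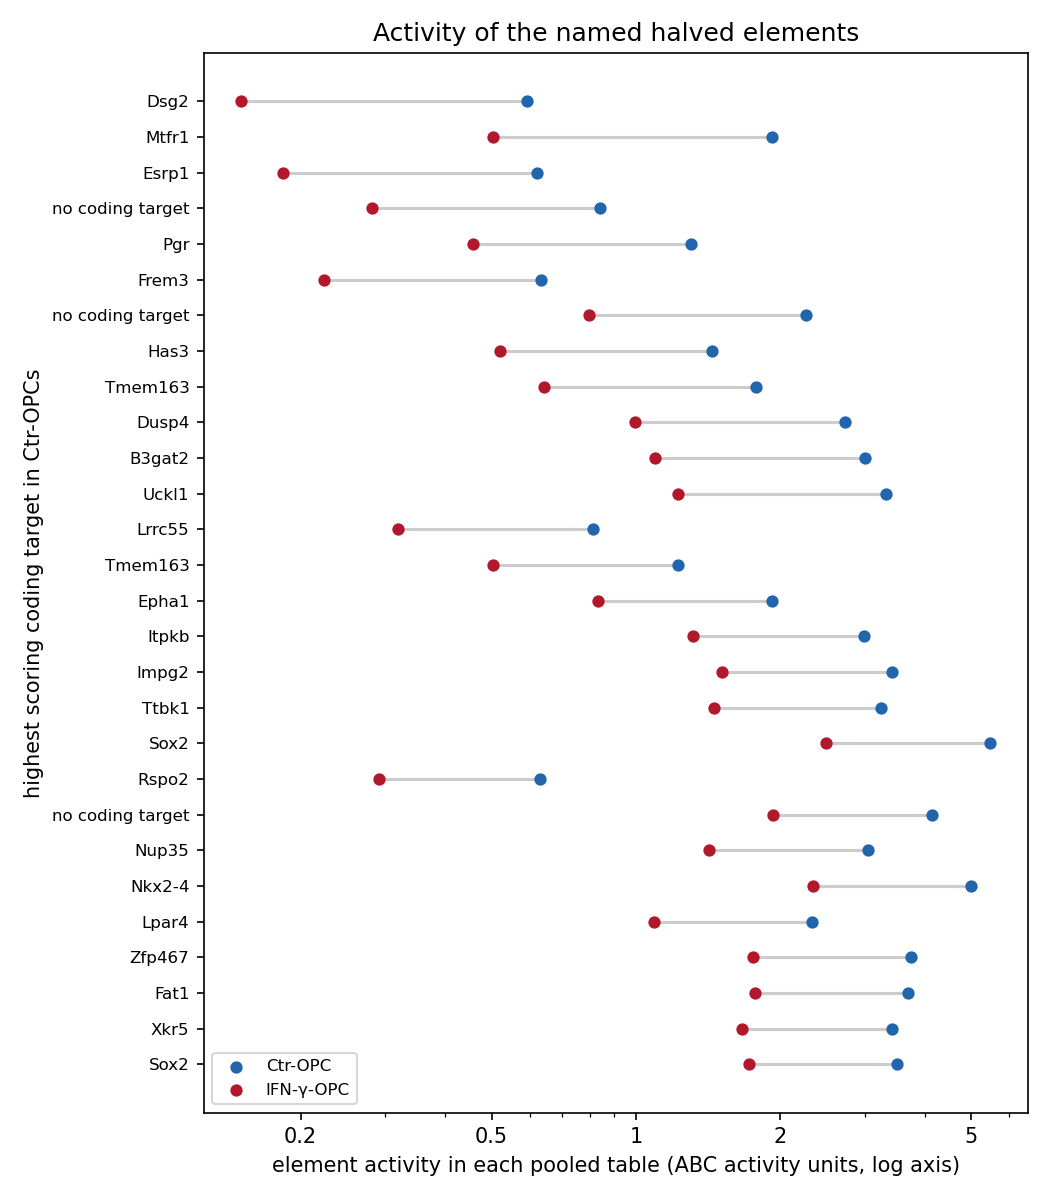
Activity of the halved elements named by rank (lowest ratio, highest activity, highest score for a coding gene or most targets) or by a connection to a list gene, in the pooled Ctr-OPC table (blue) and the pooled IFN-γ-OPC table (red) on a log axis, 1 row per element, labelled with its highest scoring protein-coding target in Ctr-OPCs and ordered from the largest loss at the top to the smallest at the bottom. Their Ctr-OPC activities span 0.593 to 5.47, and each red point lies left of its blue point because the elements were chosen that way.

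By the deposited class, 150 of the 195 elements were genic and 45 intergenic, which is 76.9% genic (95% Wilson interval 70.5 to 82.3%) against 68.7% (68.0 to 69.4%) of all matched elements and 68.0% of those with a log2 length ratio of -0.5 or less that were not halved. Of the 16 halved elements of equal length 62.5% were genic (38.6 to 81.5%), below the share of all matched elements. In the GENCODE M21 annotation of the same build, 114 element centres (58.5%) lay in introns, 17 (8.72%) in coding exons, 11 (5.64%) in untranslated regions, 7 (3.59%) in non-coding exons and 46 (23.6%) between genes. Over all matched elements these shares were 52.7%, 4.89%, 6.25%, 4.30% and 31.8%. Centres lay at a median of 12.9 kb from the nearest protein-coding transcription start site (TSS), against 16.7 kb for all matched elements, and 30 (15.4%) lay within 2 kb of one, against 10.4%. The intervals cover counting error only, and neighbouring elements are not independent. A matched element has to be listed in both tables, and one whose activity is halved has to start from a higher score to stay listed. The rule and the lower score limit of the tables thus bear on the genic share, the positions and the TSS distances. Nothing is read from their contrast with all matched elements. Halved elements were spread over 20 chromosomes, with 0.651 to 1.89% of the matched elements of each, and 8 of the 195 lay within 100 kb of another. The closest were 2 neighbouring elements of Tmem163, with centres 1255 bp apart.

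In Ctr-OPCs the 195 elements had 527 listed pairs with 513 target genes, 229 of them protein-coding, and in IFN-γ-OPCs they had 273 pairs with 270 genes. The median number of targets per element went from 2 to 1 after IFN-γ, while it was 2 in both for all matched elements. Targets became fewer for 97 elements (49.7%), stayed equal in number for 93 and became more for 5, against 22.9%, 51.7% and 25.4% of all matched elements. The element in an intron of Epha1, an ephrin receptor, had the most targets, 19 in Ctr-OPCs and 4 after IFN-γ (chr6:42361643-42363280, activity 1.92 and 0.832). The Zfp467 element had 15 and 4 targets, the Senp7 element 14 and 3, and the Xkr5 and first Sox2ot elements 13 each, with 5 and 3 left.

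Of the 527 Ctr-OPC pairs, 229 (43.5%, 95% Wilson interval 39.3 to 47.7%) were listed again in IFN-γ-OPCs, against 62.9% (62.5 to 63.4%) of the 42517 pairs of all matched elements and 58.0% (56.5 to 59.4%) of the pairs of elements with a log2 length ratio of -0.5 or less that were not halved. The share was 28.2% for the 16 elements of equal length and 27.8% for the 6 at -1.5 or less. For 205 pairs (38.9%) the gene was listed without this element, and for 93 (17.6%) the gene was not listed at all, against 14.0% of all pairs. The tables hold pairs with a score of at least 0.02, so a pair can drop out without losing its contact. Halved activity by itself lowers a score, so the rule and this limit bear on all the shares kept. Nothing about the halved elements is read from their contrast with other elements. Fewer of the weak pairs were kept. Of pairs with a Ctr-OPC score under 0.03, 11.1% (23 of 208) were kept, against 47.8% for all matched elements, and of those from 0.03 to under 0.05, 47.1% (82 of 174) against 70.6%. From 0.05 to under 0.1 the shares were 85.6% (95 of 111) and 83.5%, and at 0.1 or more 85.3% (29 of 34) and 87.6%.

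**Figure D3:**
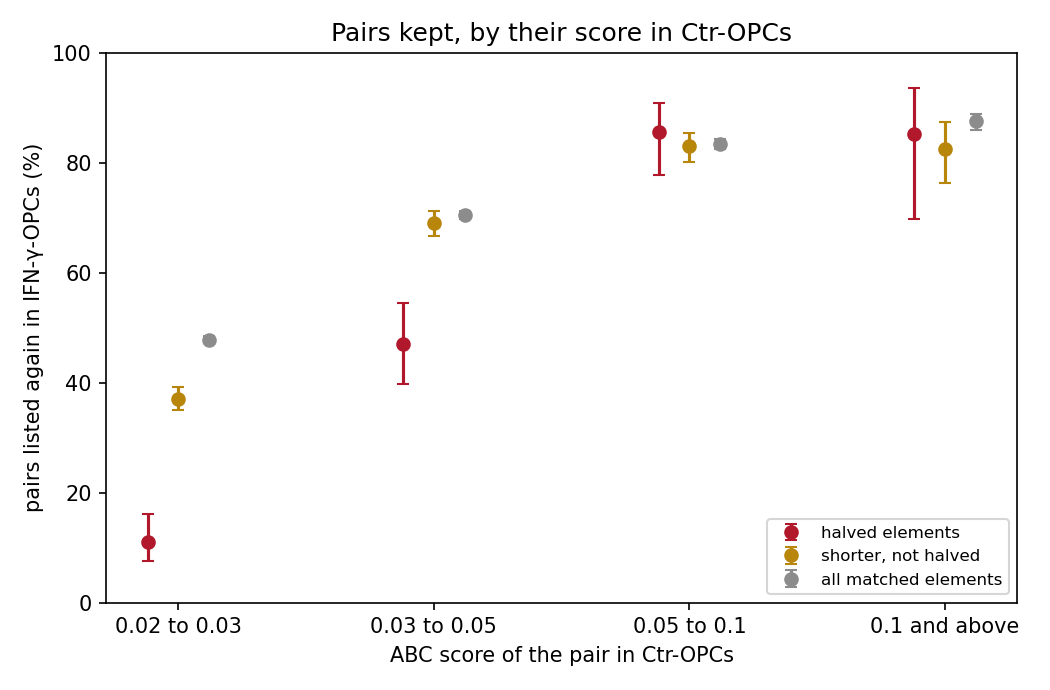
Share of Ctr-OPC pairs listed again in IFN-γ-OPCs (y axis, percent) by the ABC score of the pair in Ctr-OPCs (x axis), for halved elements (red), elements with a log2 length ratio of -0.5 or less that were not halved (gold) and all matched elements (grey); bars are 95% Wilson intervals, which cover counting error only. The red points are lowest in the 2 classes under 0.05, at 11.1% and 47.1%, and lie near the others above it.

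Pairs above 0.05, taken as connections, went from 145 to 37. Of the 145, 33 (22.8%, 16.7 to 30.2%) stayed above 0.05, 91 were listed at 0.05 or less and 21 were not listed. Of the 8989 connections of all matched elements, 59.4% stayed above 0.05 and 15.6% were not listed. Halved activity by itself lowers a score, so the rule bears on this contrast and nothing is read from it. In Ctr-OPCs 103 of the 195 elements (52.8%, 45.8 to 59.7%) held a connection, against 33.8% of all matched elements. An element whose activity is halved has to start from a higher score to stay listed at 0.02, so the rule and the lower limit of the tables bear on this share and nothing is read from it. Among the protein-coding connections, the strongest in Ctr-OPCs was to Lpar4, a lysophosphatidic acid receptor (chrX:106938950-106939728), which went from 0.242 to 0.144. The next was to Pgr, which went from 0.228 to 0.0690. The element between Nup35, a nuclear pore protein, and Dusp19 scored 0.208 for both and then 0.123 (chr2:80612343-80613241), and the Zfp467 element scored 0.207 and then 0.10 for its host gene. The connection to B3gat2, a glucuronyltransferase, went from 0.194 to 0.0647 (chr1:23763610-23764589), the one to Uckl1 from 0.148 to 0.0699, and the one to Itpkb, an inositol trisphosphate kinase, from 0.136 to 0.0658 (chr1:180331668-180332592). The connection to Lrrc55, an auxiliary potassium channel subunit, fell below 0.05, from 0.117 to 0.0334 (chr2:85198000-85198764). The Mtfr1 element lost its connection to Mtfr1 from the table (0.0640 in Ctr-OPCs).

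The Ctr-OPC pairs of the halved elements spanned a median of 22.0 kb (95% interval of the median 14.6 to 28.8 kb), against 24.7 kb for all matched elements, with 37.0% within 10 kb and 28.3% beyond 100 kb. The median was 40.6 kb for the 106 halved elements with a Ctr-OPC activity at or above the median, 38.9 kb for the 16 of equal length and 159.362 kb for the 6 at -1.5 or less. The 145 connections spanned a median of 4730 bp (3766 to 5516 bp) against 6640 bp (6430 to 6867 bp). Those of the shortened but not halved elements spanned 5773 bp. The rule and the lower limit of the tables bear on these distances too, and nothing is read from their contrast with other elements.

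Contact with the promoter was on median not lower after IFN-γ in pairs that stayed listed. Over the 229 pairs listed in both tables, the log2 contact ratio had a median of 0.16 (95% interval 0.11 to 0.25), was above 0 in 142, and compares with 0.05 for all 26751 shared pairs and 0.12 for elements with a log2 length ratio of -0.5 or less that were not halved. A pair whose activity is halved is listed in both tables only if its score stays at 0.02 or above, so low pairs with falling contact are missing from this median. In the 124 shared pairs that were above 0.05 in Ctr-OPCs, which are further from that limit, the median was -0.06 (-0.10 to -0.01), and it was -0.06 over all matched elements too. The 11 shared pairs of the elements of equal length had a median of -0.03 and the 5 of the elements at -1.5 or less a median of -0.16, with intervals on both sides of 0 (-0.29 to 0.55 and -0.36 to 1.45). Over pairs whose element and TSS were more than 1 bin of 5 kb apart it was 0.45 (67 pairs) against 0.06. The ABC score of the 229 pairs fell in 218, by a median of 0.89 on the log2 scale, beside a median activity ratio of -1.11 and a median ratio of -0.11 for the total of the target gene, the denominator of the score. For all shared pairs the median log2 ratio of the score was 0.02, a small rise, that of the activity -0.09 and that of the total -0.06. The activity quantile of the target promoters had a median change of -0.0078.

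**Figure D4:**
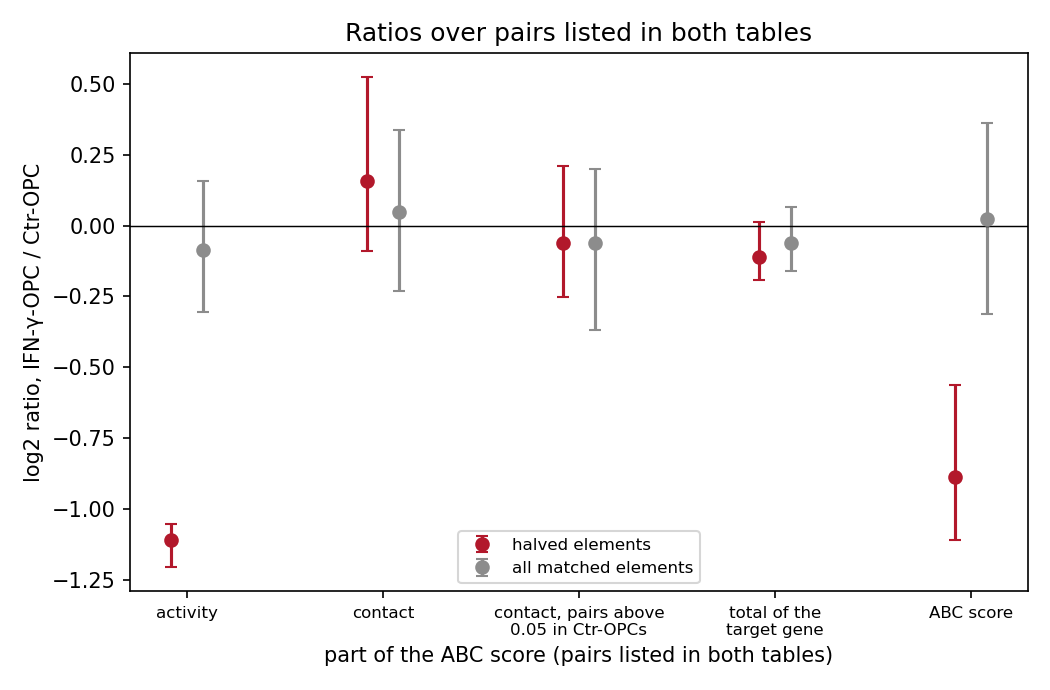
Median log2 ratio, IFN-γ-OPC over Ctr-OPC, of each part of the ABC score over pairs listed in both tables, with bars from the 25th to the 75th percentile, for halved elements (red, 229 pairs, 124 in the third column) and all matched elements (grey). Activity and score of the halved elements lie near -1.11 and -0.89. Their contact lies above that of all matched elements in the second column but not in the third, and their gene total lies slightly below.

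The target genes of the halved elements had 635 other matched elements, with a median log2 activity ratio of -0.10 (95% interval -0.13 to -0.06) against -0.07 over all matched elements, and 389 of them (61.3%) were lower in IFN-γ-OPCs against 57.5%. Of the 635, 19 were themselves halved, and without them the median was -0.09. When halved and other elements alike were limited to a Ctr-OPC activity at or above the median it was -0.15 (-0.21 to -0.10, 263 elements), and when both were limited to equal length it was 0.07 (-0.07 to 0.11, 42 elements). Among the other elements of equal length of all 195 it was -0.06 (402 elements), against -0.05 for all matched elements of equal length. The total over all elements was lower in IFN-γ-OPCs for 274 of 421 target genes listed in both tables (65.1%), with a median log2 ratio of -0.07, and for 64.3% of all genes, with a median of -0.07.

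The pairs of 7 gene lists were read for halved elements. Of the 246 genes in them, 180 had a matched element in Ctr-OPCs and 7 had a halved one, through 10 of 456 pairs (2.19%, against 1.24% of all pairs). Over all target genes with a matched element, 513 of 21175 had a halved one, so the counts of 0 in the lists below are near the overall share. The lists of differentiation and myelin genes had 3 of 23 (Enpp6, Mobp and Tmem163, 4 of 52 pairs), OPC lineage genes 1 of 28 (Nkx2-2), neural development regulators 1 of 35 (Sox2), and AP-1 and immediate early genes 2 of 30 (Dusp4 and Dusp6). None of the 24 IFN-γ response genes, the 23 cell cycle genes or the 18 cholesterol synthesis genes with a matched element had a halved one. Of the cell type markers, S100b of astrocytes and Col1a1 of vascular and mural cells had 1 halved element each, Mobp was the 1 of mature oligodendrocytes, and the OPC, microglial and neuronal markers had 0.

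Tmem163, a zinc transporter, was paired with 2 neighbouring halved elements. The intronic one had an activity of 1.78 in Ctr-OPCs and 0.643 after IFN-γ (chr1:127675604-127677267, 1664 bp and 927 bp) and its score went from 0.0861 to 0.0406. The other, centred in an untranslated region, had 1.22 and 0.505 (chr1:127677354-127678027), and its score went from 0.0591 to 0.0319. Both scores went from above to below 0.05, while the contact, equal for both, was higher by 0.32 on the log2 scale. Enpp6, a phosphodiesterase of newly forming oligodendrocytes, was paired with an element in its own intron 18.8 kb from the TSS (chr8:47005299-47006107, activity 1.56 and 0.764), at 0.0489 in Ctr-OPCs, and the pair was not listed after IFN-γ. Mobp, a structural protein of compact myelin, was paired at 0.0341 with an intergenic element 5.30 kb away (chr9:120143930-120144890, activity 0.859 and 0.406), also not listed after IFN-γ. Both genes stayed listed with other elements. Of the marker genes, S100b, a calcium-binding protein, scored 0.0595 in Ctr-OPCs and then 0.0444 with its halved element, and Col1a1, a fibrillar collagen chain, scored 0.0201 with the Sgca element and was not listed after IFN-γ.

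At the Sox2 locus, the gene for a transcription factor that keeps progenitors undifferentiated, the nearer Sox2ot element lay 12.9 kb from the TSS and scored 0.0447 and then 0.0341 for Sox2, with a contact ratio of 0.68 on the log2 scale. The farther, 209 kb away, scored 0.0291 in Ctr-OPCs and was not listed for Sox2 in IFN-γ-OPCs, while its strongest pair, with the lincRNA Gm20515, went from 0.128 to 0.0799. The total for Sox2 was higher after IFN-γ by 0.04 on the log2 scale. Nkx2-2, a transcription factor that promotes oligodendrocyte differentiation, had a pair of 0.0282 at 15.7 kb with an element in its intron (chr2:147178080-147179054, activity 2.55 and 1.12) and a pair of 0.0251 at 235 kb with the Kiz element. Neither was listed for it in IFN-γ-OPCs, and its total was higher by 0.12 on the log2 scale. The intronic element went from 0.0625 to 0.0306 for Nkx2-2os, the antisense transcript, and the Kiz element from 0.0525 to 0.0212 for Nkx2-4.

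Dusp4 and Dusp6 encode phosphatases that switch off MAP kinases downstream of growth factor receptors, the receptors that bFGF and PDGF-AA engage in this medium. The Dusp4 intronic element (chr8:34808418-34809327, 910 bp and 500 bp) had an activity of 2.73 and 0.993. Its score for Dusp4, 1.58 kb away, went from 0.112 to 0.0468 with a contact ratio of -0.05, and 8 further targets of the element in Ctr-OPCs were not listed with it in IFN-γ-OPCs. The Poc1b intronic element, of equal length, was paired with Dusp6 91.007 kb away at 0.0235 in Ctr-OPCs and was not listed with it in IFN-γ-OPCs. No gene had more than 2 halved elements in Ctr-OPCs. The 14 with 2 were the protein-coding Tmem163, Sox2, Nkx2-2 and Lpar4, both genes named Nkx2-2os, and 8 others, none of them in the lists.

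In base composition the halved elements were close to all matched elements. Their median GC content was 51.4% (95% interval 50.4 to 52.6%) against 50.6% (50.4 to 50.7%), and 49.7% in the shortened but not halved elements. They had 14.3 CpG per kb against 14.7, and 9.87% of their bases lay in soft-masked repeats against 8.80%. In the 179 shorter ones, the part kept had a GC content of 52.3% and the larger part outside the match 50.5%.

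Short motifs were searched on both strands in the 500 bp around each centre of the Ctr-OPC element. The letters GAAANNGAA, a part of the ISRE, were in 9 of 195 windows (4.62%, 95% Wilson interval 2.45 to 8.54%) against 14.5% (14.0 to 15.0%) of all matched elements, 16.4% of the shortened but not halved elements and 32.8% (27.5 to 38.7%) of the 268 doubled elements. The GAS letters TTCNNNGAA were in 10.8% (7.15 to 15.9%) of halved, 14.5% of all and 26.5% of doubled elements, and AP-1 letters TGANTCA in 12.3%, 14.8% and 20.5%. The NFI letters TTGGCA were in 23.1% (17.7 to 29.5%) against 30.9% of all. For SOX (ACAAT) the shares were 44.1% of halved and 49.6% of all elements, for E-boxes CAGCTG 38.5% and 39.3%, for CAGATG 30.8% and 36.5%, for TEAD (GGAATG) 30.8% and 26.2%, for RUNX (TGTGGT) 34.9% and 29.5%, for SP/KLF (GGGCGG) 22.1% and 22.3%, for ETS (CCGGAA) 7.69% and 10.3% and for NF-Y (CCAAT) 41.0% and 45.7%. The general E-box CANNTG was in 92.3% and 92.7%, ACAATG in 19.5% and 23.8%, and the CRE letters TGACGTCA in 0.513% and 0.825%. The motifs for which the halved elements' interval lies below the share of all matched elements are thus the ISRE part and the NFI letters. GAAANNGAA also matches inside plain GA-rich sequence, ACAAT lies within ACAATG, and a match is a description and not a binding site.

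**Figure D5:**
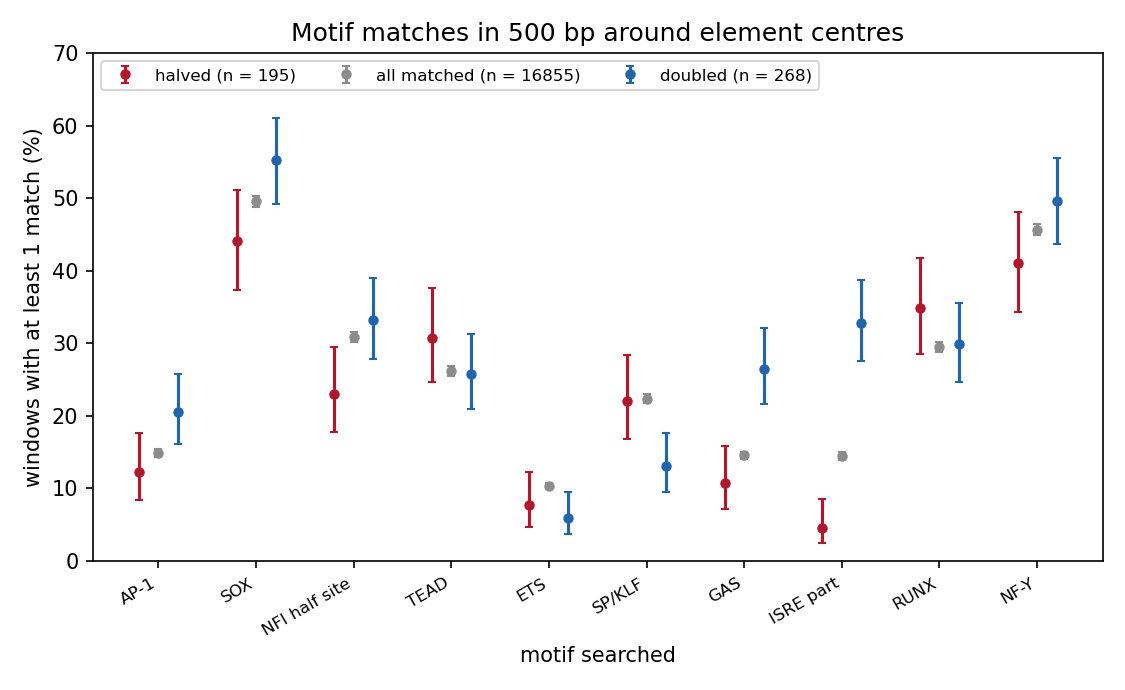
Share of 500 bp windows around element centres with at least 1 match to each motif (y axis, percent) for the 195 halved (red), 16855 matched (grey) and 268 doubled elements (blue); bars are 95% Wilson intervals. Among the motifs plotted, which leave out CRE, ACAATG and the E-boxes, the red point is lowest for the ISRE part, at 4.62%. The doubled elements reach 32.8% there.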

How the data were processed

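H3K27ac HiChIP of Ctr-OPCs and IFN-γ-OPCs was made in 3 libraries per condition. Per the labels the reads were processed with HiC-Pro on mm10, and the authors pooled each condition into 1 table of ABC predictions at 5 kb, with accessibility and H3K27ac from matching bulk ATAC-seq and CUT&RUN. The version of the ABC code and the depth per library are not given in the sources used here. The deposited activity is a signal from the accessibility and H3K27ac coverage of each element, with no statement on its length. The deposited contacts are scores scaled by the ABC code, and the deposited ABC score is a fraction, the share of 1 element in the total for a gene. The lowest deposited ABC score was 0.02, and the lowest promoter activity quantile, a deposited score of rank, was 0.4. Files with the same pairs in other layouts were not used.

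From these tables, elements were matched, annotated with GENCODE M21 and read from the GRCm38.p6 reference with Python 3.11.15, pandas 2.3.3, scipy 1.17.1 and pysam 0.24.0. The matching was tested on simulated data. With 1 value per condition there was no test, and the values are descriptions with 95% intervals for counting error (Wilson for shares, order statistics for medians) over elements or pairs that are not independent. Elements named were the 10 lowest by ratio, the 10 highest by Ctr-OPC activity, the 10 with the highest score for a coding gene, the 5 with most targets, 3 on each side of the threshold and those with a connection to a list gene. The elements of equal length and the remaining pairs of list genes were added after seeing their values. Members, lists and rules were chosen with earlier results of these data known. Alternatives covered the matching, the threshold, scaling, low activity, the pairs used and, chosen after seeing the data, element length.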

Additional observations from a re-analysis of the deposited data

How the results depend on the processing

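No paired analysis was possible because the deposited tables pool the 3 libraries of a condition, so no replicate could be blocked or left out and the spread between cultures is unknown. The number of halved elements, 195, became 670 with any overlap of 1 bp, 17 with 80% overlap, 0 with identical ends, 608 at a threshold of -0.8, 6 at -1.5, 106 and 59 with Ctr-OPC or mean activity at or above the median, and, in settings chosen after seeing the data, 53 per base (18 of them among the 195) and 16 at equal length. Scaling to the median or by quantiles gave 151 and 155. At the threshold of -1.5 the genic share was 83.3%, the median distance 159.362 kb, the share of pairs kept 27.8%, the contact ratio -0.16 and the number of list genes 0. At equal length these were 62.5%, 38.9 kb, 28.2%, -0.033 and 1, GC content was 48.9%, and the ratio of other elements was 0.069. With higher Ctr-OPC activity the distance was 40.6 kb, the share kept 37.5% and the ratio of other elements -0.15, and with median scaling the last was -0.052. Over pairs above 0.05 the distance was 4.73 kb, the share kept 85.5% and the contact ratio -0.062, in either table or in Ctr-OPCs (the latter chosen after seeing the data), and the contact ratio was 0.45 over non-adjacent bins. The direction of the contact change thus depended on the pairs and elements used, and the cause was not tested. In all, 25 recomputed values moved, 5 reversed and 23, the 2 scaled counts among them, stayed within the counting interval of the reported value or, for counts, within a factor of 1.5.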
